A study of Caenorhabditis elegans with 4 samples.

Results

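UNC-62 peaks in the centres of the autosomes II, III, IV and V are described here, out of all sites at which the GFP-tagged transcription factor UNC-62 was found in L4 larvae of Caenorhabditis elegans. A peak was counted as central when its midpoint lay in a fixed window on the WormBase WS220 genome, at 5.09 to 10.19 Mb of II, 4.59 to 9.19 Mb of III, 5.83 to 11.66 Mb of IV or 6.97 to 13.95 Mb of V, which is about the middle 33.3% of each chromosome. Of the 900 peaks in the list for the whole series, 222 were central, as were 32 of 113 peaks in ChIP replicate 1 and 46 of 174 in ChIP replicate 2. Chromosome I was outside the selection. No measured value of a peak entered the choice.

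The chromatin came from hermaphrodites of the strain OP600, grown at 20 degrees Celsius to the L4 stage and fixed with 2% formaldehyde. It has an unc119(ed3) background and the transgene wgIs600, which joins unc-62 to the tags TY1, EGFP and FLAG beside unc119 and was introduced by bombardment. Per the labels, the fusion follows the normal time and place of unc-62 expression. Loci on the transgene have extra copies, and whether any central region is among them was not tested. The same strain gave all 2 ChIP and 2 input samples. Tagged UNC-62 was precipitated with anti-GFP antibodies and the DNA was sequenced (ChIP-seq), while input is the total chromatin of the same extracts. Whole animals of 1 strain were used, so binding in few cells and weak binding in many cells cannot be told apart, and no untagged strain was analysed here. The deposited lists give the ends of each peak and a value treated here as a q-value. They come from PeakSeq, a program that sets ChIP reads against control reads, and every q lay under 0.001. Read depth is unknown, and strength is given below as −log10 q, which rises with depth as well as with enrichment.

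UNC-62 is the Meis/Homothorax homologue of C. elegans, a TALE-class homeodomain protein that binds DNA together with Hox and PBC partners and acts in larval development and in the adult intestine. C. elegans autosomes have a central cluster with dense, mostly well conserved genes and little recombination, flanked by arms that are richer in repeats and recombine more, whereas genes on X are spread more evenly. Gene density itself was not measured in these windows, since no annotation of WS220 was used here, and regions are named by position.

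The central windows held more peaks per Mb than the arms of the same chromosomes. The series list held 9.86 peaks per Mb in the central windows, which sum to 22.51 Mb, against 4.98 per Mb in the arms. The ratio was 1.98 (95% exact interval 1.64 to 2.40, counting error only). Both replicate lists lay on the same side, with 1.42 against 0.799 peaks per Mb in replicate 1, a ratio of 1.78 (1.07 to 2.96), and 2.04 against 1.26 in replicate 2, a ratio of 1.63 (1.08 to 2.45). X held 10.4 peaks per Mb in the series list, close to the central windows, but 2.15 and 2.88 in the replicates, above them. Chromosome I was the densest part of the series list, at 18.4 per Mb, but held 0.534 and 1.47 in the replicates, below the central windows. It had 276 of the 900 series peaks but 8 of 113 and 22 of 174 replicate peaks. Position is what defined the central peaks, so these densities are a description and carry no test.

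**Figure D1:**
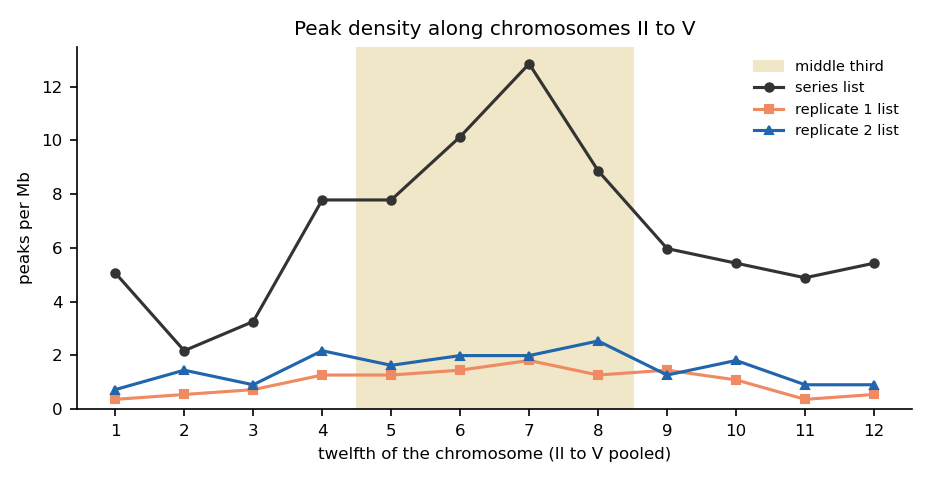
Peaks per Mb (vertical axis) in each twelfth of the chromosome length (horizontal axis), with II to V pooled, for the series list and both replicate lists; the shaded band covers the fifth to the eighth, close to the central windows. The series list peaked in the seventh twelfth at 12.8 peaks per Mb and was lowest in the second at 2.17.

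The profile along the chromosomes was not symmetric. With II to V pooled and each chromosome divided into 12 equal parts, the series list rose from 2.17 peaks per Mb in the second part to 7.78 in the fourth, 10.1 in the sixth and 12.8 in the seventh, and fell to 5.97 in the ninth. The left end part, at 5.07 per Mb, and the right arm, at 4.89 to 5.97, lay above the second part and the one after it. Replicate 1 was also highest in the seventh part, with 10 peaks, and replicate 2 was highest in the eighth, with 14.

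The centres differed among themselves. In the series list II was the densest with 65 peaks (12.7 per Mb), followed by III with 53 (11.5 per Mb), IV with 51 (8.75 per Mb) and V with 53 (7.59 per Mb). The arms of these chromosomes held 5.12, 6.44, 5.25 and 3.69 peaks per Mb, so that the ratio of centre to arms was 2.49 on II, 1.79 on III, 1.67 on IV and 2.06 on V. In both replicate lists the order of II and III was the other way round: III had 2.61 and 3.26 central peaks per Mb and II had 1.96 and 2.55. The centre of V was the sparsest in all 3 lists, with 4 peaks in replicate 1 and 7 in replicate 2. In replicate 2 the centre of V held 36.8% of the chromosome's 19 peaks, near its share of the length.

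Peaks were uneven within each window too. In sixths of a window, the count ran from 4 to 18 on II, from 5 to 14 on III, from 4 to 15 on IV and from 5 to 11 on V. The last sixth of the window of II held 4 peaks and the sixth before it 18. No peak's assignment changed when any overlap with a window was counted in place of the midpoint. The nearest peaks on either side of the window edges were weak in most cases. On II they were at 5182447 to 5182879 (inside, q = 5.18e-04) and 5049203 to 5049654 (outside, q = 2.73e-04) on the left, and at 9791148 to 9791481 (inside, q = 3.58e-04) and 10382275 to 10382591 (outside, q = 7.05e-04) on the right. On III the left edge lay between 4491204 to 4491299 (outside, q = 7.94e-05) and 4899704 to 4900047 (inside, q = 2.18e-08), the only one of these 16 peaks found in both replicates. The right edge of III lay between 8872923 to 8873445 (inside, q = 3.15e-05) and 9618860 to 9619834 (outside, q = 4.00e-07), the latter also found in replicate 1. On IV and V the 8 peaks nearest the edges had q from 1.23e-06 to 9.57e-04, and none of them had a counterpart in a replicate list.

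Most central peaks were of modest strength, with a few very strong ones. The median −log10 q was 4.02 in the series list (95% interval of the median 3.81 to 4.38; quartiles 3.42 and 5.59), and the values ran from 3.02 to 30.7. The arms had a median of 4.15 (3.94 to 4.33), X 4.17 (3.88 to 4.68) and the whole list 4.14, so the intervals overlapped. The median was 4.42 on III, 4.24 on IV, 4.13 on II and 3.74 on V. The interval for V, 3.57 to 4.23, overlapped that of III, 3.85 to 5.21. Of the 100 strongest peaks of the series list 21 were central, which is 9.46% of the central peaks against 11.1% of all peaks. In the replicates the central medians were 3.93 and 3.92, beside 4.53 and 4.13 for the arms and 3.74 and 4.13 for X.

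Central peaks had a median width of 307 bp (interval 282 to 340), against 346.5 bp in the arms (299 to 378) and 353.5 bp on X (338 to 386). The median was 270.5 bp on chromosome I (253 to 293) and 309 bp over the whole list (296 to 330). The centres were thus near the whole list, which takes in the narrower peaks of chromosome I. Their median was below those of the arms and X, with intervals that overlap. The widest central peak was one of 1206 bp on II at 9060209 to 9061414 (q = 7.44e-07), which replicate 2 also held at 1135 bp (q = 1.49e-04). The narrowest spanned 3 bp on III at 5717444 to 5717446 (q = 1.56e-04). Widths under 100 bp were found for 31 central peaks (14.0%), among them 12 of the 51 on IV, beside 11.2% of all series peaks. None of the 31 had a counterpart in a replicate list (exact upper limit 11.2%), and both replicate lists were without peaks that narrow. The strongest of the 31 was only at rank 295 of the series list, and width and strength were not told apart here. Across central peaks, width and −log10 q had a Spearman rho of 0.49 (n = 222 peaks of 1 list), and in the arms rho was 0.58 (n = 218).

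**Figure D2:**
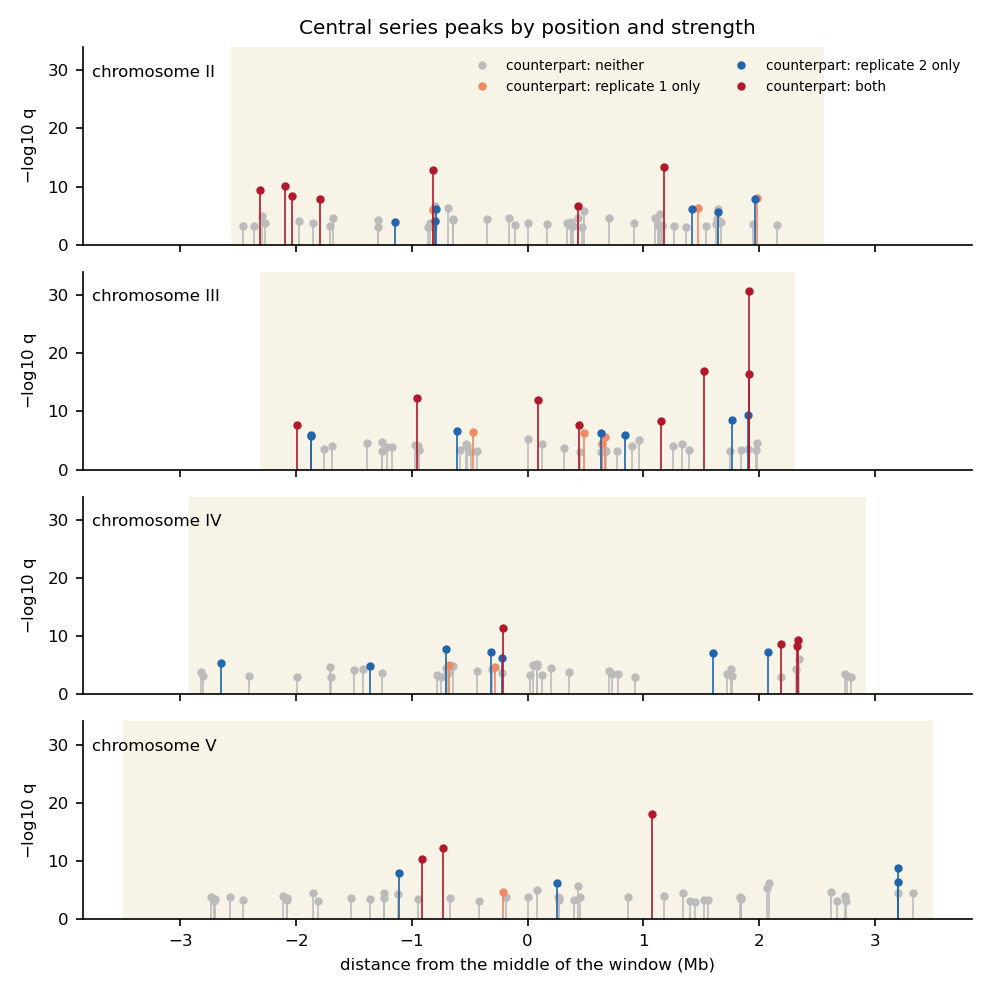
−log10 q of each of the 222 central series peaks (vertical axis) against its distance from the middle of the window in Mb (horizontal axis), 1 panel per chromosome, coloured by whether the peak overlapped a peak of both, either single or neither replicate list. The tallest bar, at 30.7, is on III, and most bars under 5 are grey, without a counterpart.

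The next comparison asked which central peaks were found in the single replicates. Of the 222 central series peaks, 56 overlapped a replicate peak by at least 1 bp, which is 25.2% (95% Clopper-Pearson interval 19.7 to 31.5%), beside 23.1% of all series peaks and 29.3% of those outside chromosome I. Both replicates held 22 of them (9.91%, 6.32 to 14.6%), beside 8.33% over the whole list and 11.2% outside chromosome I. Another 24 were found in replicate 2 alone and 10 in replicate 1 alone, which left 166 without a counterpart. Taken alone, replicate 1 matched 14.4% of the central series peaks and replicate 2 matched 20.7%. The share with a counterpart was 28.9% in the arms (23.0 to 35.4%) and 34.8% on X (27.9 to 42.1%), with intervals that overlap that of the centres, and 9.06% on chromosome I (5.95 to 13.1%), which does not. Peaks of a list are not replicates, so no test was made of these differences. If the series list was made from the same reads as the replicate lists, which is not stated, a counterpart is not independent evidence of binding.

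By chromosome the share with a counterpart was 35.8% in the centre of III (19 of 53, interval 23.1 to 50.2%), 25.5% in IV (13 of 51), 24.6% in II (16 of 65) and 15.1% in V (8 of 53, 6.75 to 27.6%). The arms followed a like order at the top, with 39.0% on III, and lay at 26.9% on II, 25.5% on V and 23.2% on IV. All of these intervals overlapped. In the dense centre of II, 49 of 65 series peaks were found in neither replicate (75.4%). This was near the 74.8% of all central peaks, the 73.1% of the arms of II and the 76.9% of the whole list.

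Whether a central peak had a counterpart went with its strength. All 21 central peaks among the 100 strongest of the series had one (100%, interval 83.9 to 100%), and 18 of the 21 were in both replicates. Among ranks 101 to 200 it was 21 of 26 (80.8%, 60.6 to 93.4%), among ranks 201 to 300 it was 8 of 20 (40.0%, 19.1 to 63.9%), and among ranks 301 to 400 it was 4 of 29. Below rank 500 a single central peak of 107 had one, at II 6491822 to 6492052 (rank 511, q = 1.21e-04). The whole series gave 87, 67, 31 and 14 of 100 in the classes up to rank 400, and 2 of 400 below rank 500. Of its 100 strongest peaks 60 were in both replicates, with 21 of 26 in the arms and 16 of 21 on X. The arms gave 26 of 26, 20 of 21 and 9 of 21 in the first 3 classes and X gave 21 of 21, 20 of 21 and 14 of 27, while chromosome I gave 19 of 32, 6 of 32 and 0 of 32. In these 3 classes the intervals of the centres overlapped those of the arms and X and lay above those of chromosome I, a difference that was not tested. A counterpart itself had q under 0.001 in its replicate list, and the series q was lower at every matched central peak. Part of the link between strength and counterparts was therefore set by definition.

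**Figure D3:**
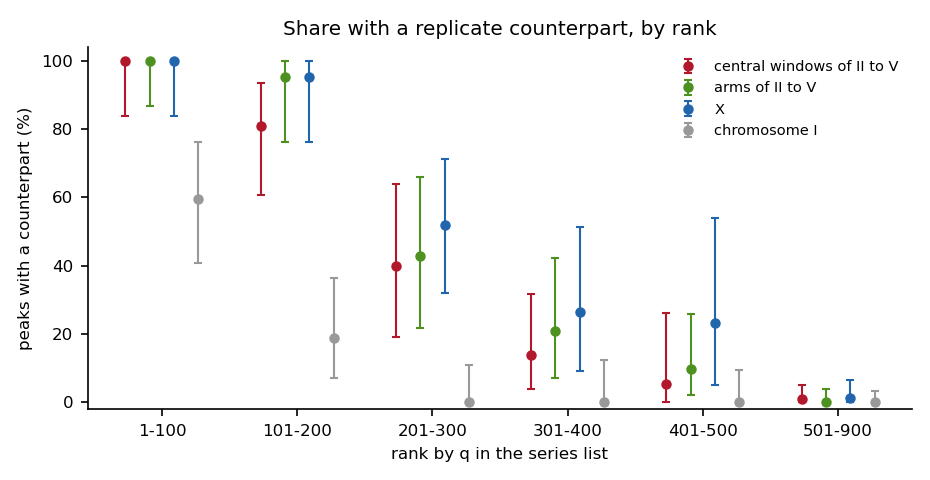
Percentage of series peaks that overlap a peak of either replicate list (vertical axis), by rank of q in the series list (horizontal axis), for the centres and arms of II to V, X and chromosome I; bars are 95% Clopper-Pearson intervals. In the centres the share falls from 100% in ranks 1 to 100 to 0.935% in ranks 501 to 900.

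The median −log10 q of central series peaks was 10.2 for the 22 found in both replicates (6.65 to 30.7), 6.24 for the 24 found in replicate 2 alone, 5.82 for the 10 found in replicate 1 alone and 3.70 for the 166 found in neither. Their median widths were 483, 508, 412.5 and 264.5 bp. The strongest central peaks without a counterpart were at II 6838224 to 6838509 (rank 152, q = 1.99e-07), II 6951358 to 6951628 (rank 181), V 12542933 to 12543290 (rank 188), II 6824472 to 6824803 (rank 191) and II 9283998 to 9284938 (rank 200, q = 7.68e-07). All but the one on V were on chromosome II.

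Between the replicates, 22 of the 32 central peaks of replicate 1 overlapped one of replicate 2 (68.8%, interval 50.0 to 83.9%), beside 66.4% over its whole list, 71.4% in the arms and 60.5% on X. The same 22 made up 47.8% of the 46 central peaks of replicate 2 (32.9 to 63.1%), beside 43.1% over its whole list, 45.5% in the arms and 45.1% on X. The pairs were 7 on II, 8 on III, 4 on IV and 3 on V. Their midpoints lay a median of 40 bp apart, with 16 of the 22 within 100 bp and the farthest 313 bp apart. The 5 central peaks among the 20 strongest of each replicate list were all shared, beside 19 of all 20 in replicate 1 and 18 of all 20 in replicate 2. Every central peak of either replicate was also in the series list, as were 112 of all 113 peaks of replicate 1 and 173 of all 174 of replicate 2.

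Over the 22 pairs −log10 q was related between the replicates, with Pearson's r at 0.884 and Spearman's rho at 0.763 (n = 22 pairs, which share the same 2 libraries). Leaving out the 2 pairs most distant from replicate 1's median gave an r of 0.703. In the arms r was 0.898 and rho 0.747 (n = 25 pairs), and on X r was 0.458 and rho 0.413 (n = 23 pairs). The highest −log10 q on X was 8.90 in replicate 1 and 7.49 in replicate 2. The cause of the lower values of r and rho on X was not tested. Replicate 2 had the lower q in 17 of the 22 central pairs, beside 18 of 25 in the arms and 51 of all 75 pairs. The median difference in −log10 q was 0.81 in its favour, beside 0.69 over all pairs. The replicate 2 peak was the wider in 12 of the central pairs, 19 of 25 in the arms and 51 of all 75. The series list had the lower q at all 32 central peaks of replicate 1 and all 46 of replicate 2, and its −log10 q was higher there by a median of 4.77 and 3.62.

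**Figure D4:**
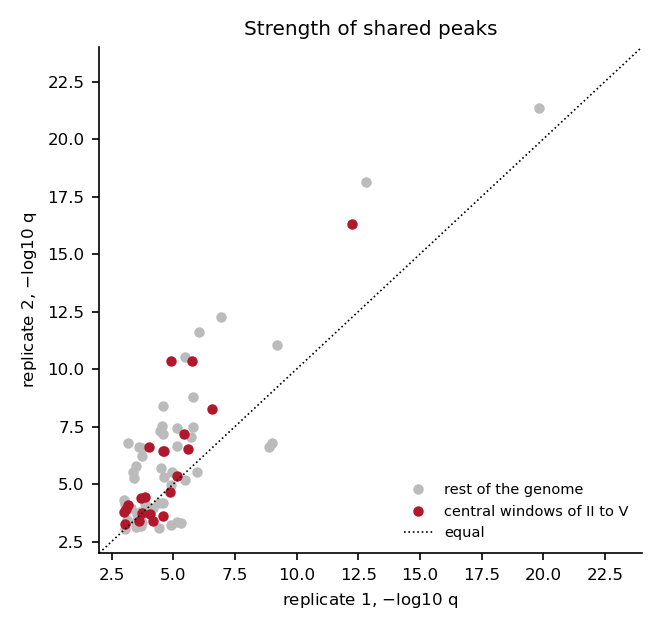
−log10 q in replicate 1 (horizontal axis) and replicate 2 (vertical axis) of peaks shared by the replicates, with the 22 central pairs in red and the other pairs in grey; the dotted line marks equal values. Of the central pairs 17 lie above the line, and of all 75 pairs 51 do.

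The strongest central peaks are given by chromosome, as the 5 with the lowest q in the series list on each. Of these 20 peaks, 17 were in both replicates and 3 in replicate 2 alone. On III all 5 were in both. The peak at 8801303 to 8802325 was ranked 3 in each of the 3 lists, where its q was 1.81e-31 for the series, 5.66e-13 for replicate 1 and 4.88e-17 for replicate 2. At 8417145 to 8417929 the series q was 1.29e-17, and the replicate values were 2.75e-07 and 5.23e-09. Replicate ranks for it were 8 and 12, so it was among the strongest everywhere. The peak at 8799815 to 8800885 had q = 3.51e-17, 1.73e-06 and 4.26e-11, and was 582 bp wide in replicate 1 but 954 bp in replicate 2. The peak at 5937868 to 5938333 had q = 4.19e-13, 3.50e-06 and 6.79e-08, with ranks of 18 and 20 in the replicates. The peak at 6978829 to 6979329 had a series q of 9.11e-13 and replicate values of 9.68e-05 (replicate 1, rank 56) and 2.46e-07 (replicate 2, rank 25).

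On V the strongest central peak, at 11531873 to 11532667, had the largest difference between replicates of the 22 pairs. Its series q was 7.27e-19, and its replicate values were 1.26e-05 (replicate 1, rank 29) and 4.38e-11 (replicate 2, rank 9), a difference of 5.46 in −log10 q, and its replicate 1 peak was 375 bp wide against 658 bp. The other pairs on V were nearly equal. The peak at 9730890 to 9731570 had a series q of 5.20e-13 and replicate values of 7.02e-06 and 4.45e-06. For the peak at 9546824 to 9547184 these were 4.82e-11, 1.31e-05 and 2.12e-05. The remaining 2, at 13658103 to 13658910 (q = 2.00e-09) and 9344031 to 9344484 (q = 1.08e-08), were in replicate 2 alone, with q = 8.82e-04 and 1.20e-04 there.

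The centre of II, the densest, had no peak among the 29 strongest of the series. Its strongest, at 8813584 to 8813963, was ranked 30 with q = 4.84e-14, and the replicate values were 2.28e-05 and 3.62e-07. The peak at 6823203 to 6823528 had q = 1.70e-13, 2.41e-06 and 3.13e-07. It was the central peak of II with the best rank in replicate 1, at 15. The peak at 5543358 to 5544421 (q = 7.60e-11) was one of 5 central pairs stronger in replicate 1, with q = 2.49e-05 and a width of 948 bp there against q = 2.49e-04 and 398 bp in replicate 2. The 2 midpoints were 313 bp apart, the most among the central pairs. The last 2, at 5330093 to 5330469 (q = 4.52e-10) and 5605467 to 5605861 (q = 3.83e-09), were near the threshold in replicate 1, with q = 7.05e-04 and 8.40e-04, and lower in replicate 2, with q = 8.05e-05 and 1.19e-04.

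On IV the strongest central peak was at 8530504 to 8531003, with a series q of 3.63e-12 and replicate values of 2.72e-05 and 3.62e-07. That at 11082720 to 11083321 (q = 3.88e-10) was stronger in replicate 1, at 6.88e-05, than in replicate 2, at 3.89e-04. The peak at 10935945 to 10936455 (q = 2.45e-09) was nearly equal in both, at 1.87e-04 and 1.76e-04, and that at 11068310 to 11068649 (q = 4.28e-09) was lower in replicate 2, at 3.94e-05 against 1.94e-04. The fifth, at 8036482 to 8036788 (q = 1.43e-08), was in replicate 2 alone, with q = 1.52e-05. No peak of the centre of IV was among the 20 strongest of either replicate, whereas the centre of III had 4 in each.

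Central peaks found in 1 replicate alone had a higher median q there than the shared ones. In replicate 1 the 10 central peaks without a partner had a median −log10 q of 3.32, against 4.36 for the 22 shared peaks, and the best of them was ranked 49, at II 9619257 to 9619642. In replicate 2 the 24 without a partner had a median of 3.82 against 4.55, and the best was ranked 38, at III 8795524 to 8796127 (q = 1.93e-06). A peak missing from a list may lie just under its threshold, which these files cannot show.

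Grouping was measured as the share of peaks with a neighbour. With gaps of at most 5 kb, 68 of the 222 (30.6%, interval 24.6 to 37.1%) had a neighbour. This compares with 25.2% in the arms (19.6 to 31.5%), 18.5% on X (13.1 to 24.9%), 39.5% on chromosome I (33.7 to 45.5%) and 29.6% of the whole list. The centres were near the whole list, which takes in chromosome I, and above the arms and X, with intervals that overlap. In the series list the median distance to the nearest other peak was 18.9 kb in the centres and 47.5 kb in the arms. It was 23.1 kb on X and 8.84 kb on chromosome I. The grouped shares in the centres of II, III, IV and V were 27.7, 37.7, 29.4 and 28.3%. In the replicate lists 4 of 32 and 9 of 46 central peaks were grouped (12.5% and 19.6%). The arms gave 17.1% and 25.5% there, and the whole lists 14.2% and 19.5%. Unlike in the series list, the median distance to the nearest other peak was longer in the centres (184 and 187 kb) than in the arms (112 and 96.1 kb). Of the grouped central series peaks 24 of 68 had a replicate counterpart (35.3%, 24.1 to 47.8%), and of the single ones 32 of 154 (20.8%, 14.7 to 28.0%). The share was 25.2% over all central peaks and 23.1% over the whole list. The 2 intervals overlap, and the grouped and single peaks were not matched for strength.

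The 68 peaks formed 29 groups, 22 of them pairs, 5 trios and 2 larger. The group with the strongest peaks was on III at 8794648 to 8802325, where 4 series peaks lay within 7.68 kb. From left to right they had q = 3.48e-04 (no counterpart), 4.67e-10 (replicate 2 alone), 3.51e-17 and 1.81e-31 (both replicates), so that strength rose along the group. On II, 5 peaks lay within 3.79 kb at 6822268 to 6826061. Only the second of them, at 6823203 to 6823528, was in both replicates. The first, at 6822268 to 6822554 (q = 1.09e-06), was in replicate 1 alone, and the other 3 were in neither, with q from 6.23e-07 to 8.19e-04. A trio lay 12 kb further right on II, at 6838224 to 6843858, and held the strongest central peak without a counterpart.

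**Figure D5:**
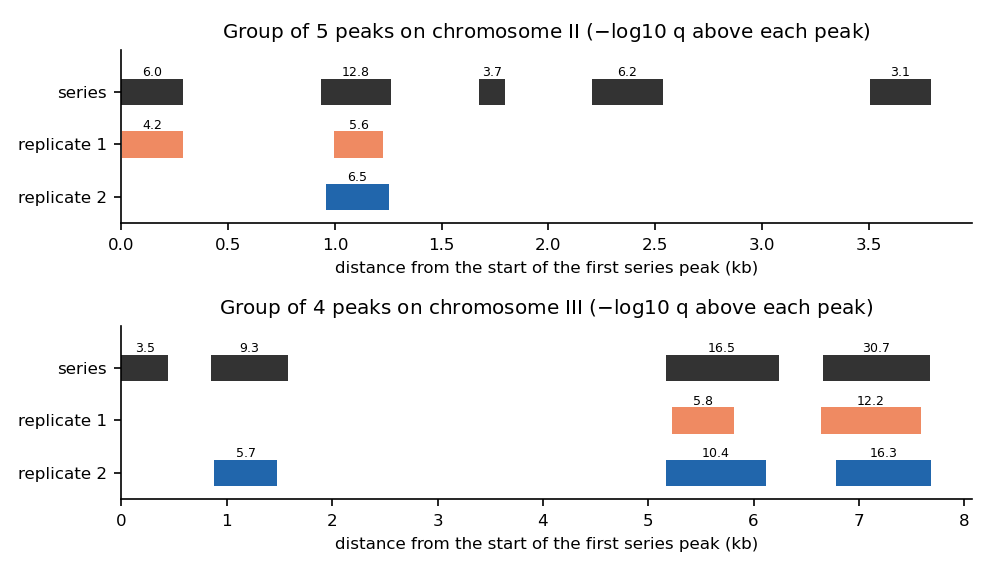
Series, replicate 1 and replicate 2 peaks (rows) in the 2 central groups of 4 or more series peaks, drawn to scale against distance from the start of the first series peak in kb; the number above each peak is its −log10 q. On II 2 of 5 and on III 3 of 4 series peaks have a replicate peak under them.

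The other trios were mixed as well. On IV, at 8525949 to 8531003, the peaks had q = 2.06e-04 (no counterpart), 6.75e-07 (replicate 2 alone) and 3.63e-12 (both). On V the trio at 13656332 to 13658910 had 2 peaks in replicate 2 alone, while those at 10723205 to 10731278 and 12297043 to 12303719 had none in either replicate, with q from 1.72e-04 to 4.68e-04.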

How the data were processed

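The genome build is WormBase WS220 per the file headers, and PeakSeq is the peak caller per the source field of the files. The authors deposited 3 peak lists, of which each ChIP sample has 1 and the series 1, with a value per peak treated here as a q-value. This value times the peak's number never fell along any list. Sorted p-values would give the same, so this does not settle what the value is. For the aligner, depth, threshold and making of the series list, the status is: not given in the sources used here. No input list was used here.

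Calculations used numpy 2.4.6 and scipy 1.17.1 under Python 3.11.15, and matplotlib 3.10.9 drew the figures. Coordinates are 1-based. Peaks overlapping by at least 1 bp were counted as shared. Intervals are 95% Clopper-Pearson intervals (for medians, from binomial order statistics). They treat peaks as independent and cover counting error only. The length of a chromosome was its largest coordinate in any list. No tests were run, since the replicates form 1 group and peaks are not replicates; whether the replicates came from separate cultures is not stated. Overlap, window and grouping functions were checked on made-up lists.

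Named regions were the 5 lowest q per chromosome, the 5 lowest without a counterpart, groups of 4 or more, window-edge peaks, and the widest and narrowest. Trios, the best peaks found in 1 replicate alone and the lowest-ranked peak with a counterpart were named after their values were seen. Windows and rules were chosen with earlier results of these data known. Gene names and sequences need WS220 and were not used.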

Additional observations from a re-analysis of the deposited data

How the results depend on the processing

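Of 43 values recomputed under an alternative, 33 stayed within the interval of the reported one. With a counterpart required to cover 50% of the shorter peak, all 3 overlap shares were as reported. With midpoints required to lie within 100 bp, the share of central series peaks with a counterpart was 23.9%. The share of central peaks found in the other replicate was then 50.0% for replicate 1, at the lower limit of its interval, and 34.8% for replicate 2. The share of central series peaks with a counterpart was 51.9% among the stronger peaks of the list (q under its median), and 14.4% to 20.7% when counterparts were taken from 1 replicate alone, the lower value being without replicate 2. Leaving out each chromosome in turn kept it at 21.9% to 28.4%. The ratio of central to arm density was 1.63 in replicate 2, under the interval of the series list, and stayed above 1 under all 6 alternatives. Pearson's r between the replicates was 0.46 on q without the log and 0.703 when the 2 pairs most distant from replicate 1's median were left out, so it rests in part on the strongest pairs. The median width was 347.5 bp in replicate 1 and 399 bp in replicate 2. The share of grouped peaks was 16.2% with gaps of at most 2 kb, by construction, and 12.5% and 19.6% in the shorter lists of replicates 1 and 2. For the other shifts the cause was not tested. No paired analysis was possible because the inputs, which carry the same replicate numbers as the ChIP samples, are not analysed here. Unknown depth limits every statement on strength.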

Other observations

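Several long stretches of the central windows held no series peak, counted between peaks and from a window edge to the nearest central peak. The longest was at the left edge of the window of V, 758 kb from 6970000 to 7727950, followed by 673 kb on IV from 9669001 to 10341835. On III the longest was 441 kb from 6453926 to 6895073, and on II it was 399 kb at the right edge of the window, from 9791482 to 10190000. Mean spacing ran from 78.5 kb per peak in the window of II to 132 kb in that of V. Mappability and gene content of these stretches were not analysed here.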
